A study of Mus musculus with 59 samples.

Results

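H3K27me3, the repressive histone mark, was compared between 6 brainstem tumours of mice with the K27M change in H3f3a (tumours 1 to 6) and 5 tumours with the tagged wild-type histone (WT, tumours 7 to 11). These 11 island lists are the H3K27me3 lists of tumours among 59 samples of the series, 36 of which had a processed list, and the other 23 were input DNA. Only the 19 autosomes were used. The K27M tumours carried Nestin-creERT2, H3f3aLSL-K27M-Tag/+, LSL-PDGFRαV544ins and Trp53flox/flox. The WT tumours carried H3f3aLSL-WT-Tag/+ in place of the K27M allele and the other alleles unchanged, so every tumour had the mutant receptor transgene and the floxed Trp53 alleles. Recombination is driven by a tamoxifen-inducible Cre under a Nestin promoter, which acts in neural precursors, and both H3f3a alleles sit at their own locus. Sex is partly tied to genotype: males were 4 of the 6 K27M and 1 of the 5 WT tumours. The samples were snap-frozen bulk tumours: fewer cells with a mark and less mark in each cell cannot be told apart in any value below. H3K27ac peaks lay at Olig1 and Olig2, at Sox10 and at Sox2, markers of the oligodendrocyte and neural precursor lineages, in all 11 tumours.

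Polycomb repressive complex 2 (PRC2) methylates lysine 27 of histone H3, and the mark is normally widest and strongest over CpG-rich promoters of silent developmental genes, such as the Hox clusters. A K27M histone inhibits PRC2 and is the hallmark of diffuse midline gliomas of childhood, in which H3K27me3 is lost from much of the genome but kept at some PRC2 targets. The promoters of 5 genes the results turn on are shown, because CpG-rich DNA is where PRC2 is known to be recruited. Each sequence is the RefSeq window of 300 bases around the gene's start (GRCm38.p6), on the gene's strand, with every CG in capitals. Olig2 and Foxd3 had the largest log2 folds of reads, and Hoxd13 lies in the Hoxd cluster. Tfap2a rose in reads relative to other regions while H3K27ac was shorter, and Irx3 was 1 of 2 loci with a log2 fold below 0.
Olig2: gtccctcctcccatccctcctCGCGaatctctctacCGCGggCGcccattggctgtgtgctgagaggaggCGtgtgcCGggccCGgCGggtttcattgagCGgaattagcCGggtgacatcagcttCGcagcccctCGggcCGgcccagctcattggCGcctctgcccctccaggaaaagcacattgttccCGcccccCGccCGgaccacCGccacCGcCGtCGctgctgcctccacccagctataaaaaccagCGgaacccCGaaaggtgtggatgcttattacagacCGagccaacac
Foxd3: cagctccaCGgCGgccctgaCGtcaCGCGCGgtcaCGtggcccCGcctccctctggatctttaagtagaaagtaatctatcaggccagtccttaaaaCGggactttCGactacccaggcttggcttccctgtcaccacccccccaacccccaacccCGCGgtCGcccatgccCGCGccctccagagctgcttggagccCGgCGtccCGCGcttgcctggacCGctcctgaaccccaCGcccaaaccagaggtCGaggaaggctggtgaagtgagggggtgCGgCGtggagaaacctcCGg
Hoxd13: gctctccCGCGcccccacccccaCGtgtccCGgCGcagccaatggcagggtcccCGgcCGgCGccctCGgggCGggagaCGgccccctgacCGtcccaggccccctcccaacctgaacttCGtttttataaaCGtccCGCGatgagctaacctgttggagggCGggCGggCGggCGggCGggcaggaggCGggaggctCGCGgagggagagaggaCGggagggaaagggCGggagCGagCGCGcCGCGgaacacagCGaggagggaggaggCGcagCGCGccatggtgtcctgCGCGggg
Tfap2a: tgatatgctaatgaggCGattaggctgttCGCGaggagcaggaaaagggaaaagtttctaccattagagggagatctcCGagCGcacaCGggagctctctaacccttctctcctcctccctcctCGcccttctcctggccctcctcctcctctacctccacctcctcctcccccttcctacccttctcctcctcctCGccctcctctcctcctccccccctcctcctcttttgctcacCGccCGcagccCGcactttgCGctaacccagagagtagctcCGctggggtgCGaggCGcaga
Irx3: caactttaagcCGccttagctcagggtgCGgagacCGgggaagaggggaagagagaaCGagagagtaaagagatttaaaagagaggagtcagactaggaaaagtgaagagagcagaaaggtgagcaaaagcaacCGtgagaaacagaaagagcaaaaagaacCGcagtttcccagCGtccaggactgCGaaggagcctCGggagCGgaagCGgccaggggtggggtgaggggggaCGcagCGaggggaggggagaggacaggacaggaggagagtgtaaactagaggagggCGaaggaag
The CG dinucleotide reads the same on both strands. It occurs 25 times in the Olig2 window and 25 times in the Foxd3 window, and 20.2% of 27025 genes with a RefSeq window have as many or more. Hoxd13 has 37, a count reached by 6.26% of genes, whereas Tfap2a has 15 (reached by 37.1%) and Irx3 has 14 (reached by 38.7%). Of the 112 genes at the developmental loci described below, 90 had a window, with a median of 20.5 CGs against 8.00 over all genes. The median was 20.0 over 58 genes of loci that rose and 23.0 over 27 genes of loci that did not pass.

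The genome-wide size of the islands did not separate the genotypes. An island is a stretch of the genome that the peak caller found enriched. Autosomal islands numbered 10716 to 42642 in K27M tumours and 16858 to 33190 in WT tumours, covering 159.1 ± 66.5 Mb and 187.8 ± 80.6 Mb (SD, n = 6 and 5). The median island was 5.27 ± 1.22 kb wide in K27M tumours and 5.08 ± 1.30 kb in WT tumours. The read-weighted median width, at which as many reads lie in narrower as in wider islands, was 15.3 ± 3.79 kb in K27M tumours and 11.6 ± 3.74 kb in WT tumours. Reads per kb of island came to 35.0, 35.5, 40.5, 44.0, 44.2 and 76.8 in K27M tumours, against 24.2, 27.4, 29.2, 31.9 and 47.7 in WT tumours. Only the last measure had an unadjusted p under 0.05 in the two-sided exact permutation test (p = 0.0476, adjusted p = 0.238 over the 5 measures), and the groups overlap at WT tumour 10. Adjusted p-values of the other 4 measures ran between 0.346 and 0.805, and the smallest p that 6 against 5 tumours can give is 0.00433.

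What differed was where the reads lay. A list of 89 loci of developmental regulators was used, with their mm9 intervals given from prior knowledge of that assembly, since no mm9 annotation was used. The spacing of 85 of them matched RefSeq gene order or H3K4me3 peaks, and the other 4 were left out. The list was drawn up with earlier results of these data known, so it is not independent of the values below. After islands sharing 1 bp were merged over the 11 tumours, these loci fell on 84 of 51216 regions, the region with most reads standing for each locus. The 84 regions held 9.93, 10.0, 11.6, 14.9, 16.5 and 16.9% of autosomal island reads in K27M tumours, against 4.69, 5.58, 6.23, 6.42 and 8.70% in WT tumours. Every K27M tumour lay above every WT tumour. Their share of the island length was 5.01 ± 2.20% in K27M tumours and 3.95 ± 1.56% in WT tumours, which overlap. Read density over the 84 regions was 2.11 to 3.88 times that of all other autosomal islands in K27M tumours and 1.34 to 1.91 times in WT tumours. Within females the share of reads was 16.5 and 16.9% in the 2 K27M tumours and 4.69 to 8.70% in the 4 WT tumours. Within males it was 9.93 to 14.9% in the 4 K27M tumours and 6.42% in the only WT tumour. The share is taken over all islands of a list, and the 2 female K27M lists held the fewest, 10716 and 13251. Over only the regions with an island in all 11 tumours, the share was 16.9 to 21.2% in K27M tumours and 10.1 to 12.5% in WT tumours.

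**Figure D1:**
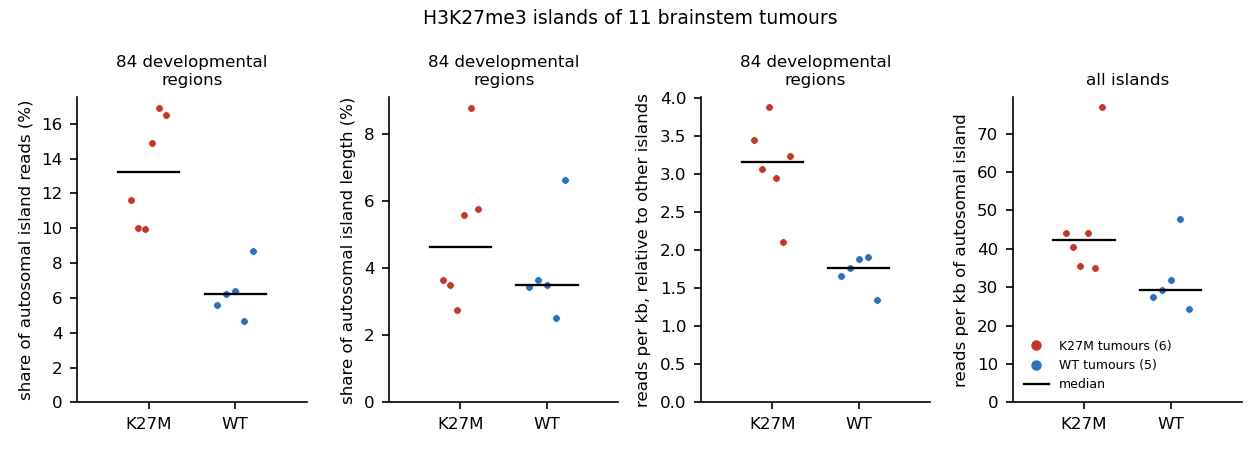
Each point is 1 tumour (6 K27M, left, and 5 WT, right) and each line a median. The panels show the share of autosomal island reads and of island length in 84 developmental regions, in percent, the reads per kb there relative to other islands, and the reads per kb of all islands. The K27M tumours lie above the WT tumours without overlap in the share of reads (9.93 to 16.9% against 4.69 to 8.70%) and in relative density, and overlap in length and in reads per kb of all islands.

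Reads were tested per region over the 3027 regions with an island in all 11 tumours, with edgeR (quasi-likelihood F test, Benjamini-Hochberg). Values are CPM, reads scaled to a common total over those regions, after scaling for composition by the trimmed mean of M-values (TMM). A rise or fall is therefore relative to the other regions, and no value measures an absolute amount of the mark. Of the 3027, 225 rose (7.43%) and 162 fell (5.35%) in K27M tumours. Without composition scaling these counts were 169 and 368, and with all autosomal island reads as library size they were 211 and 89, so the balance between rises and falls depends on the scaling. Leaving out K27M tumour 1, 4, 5 or 6 or WT tumour 7, 8 or 9 brought the falls to 77 to 105. Of the 84 developmental regions, 79 had an island in all 11 tumours. Among the 79, 44 rose and none fell, and 77 had a positive log2 fold. Their median log2 fold was 0.86, beside -0.10 over all 3027 regions. Developmental regions were wide, with a median of 79.7 kb over the 84, beside 31.4 kb over the 3027. They were not compared with other regions of like width or read level. Every K27M tumour exceeded every WT tumour in 36 of the 79 regions, which held for 5.72% of the 3027, and none of the 79 had the opposite order, which held for 3.53%. With either other scaling 40 and 43 of them rose and none fell. With sex as a covariate 45 rose. In females alone 9 rose, while 77 of the 79 folds remained positive with a median of 1.11. A genotype by sex interaction passed in none of the 3027 regions by edgeR (lowest adjusted p = 0.350), with 155 at an unadjusted p under 0.05, 2 of them among the 79. Some loci hold further tested regions with fewer reads, which are not among the 79 and went both ways. Among these, the regions at Nkx6-1 and Wt1 had log2 folds of -0.86 and -0.86 (edgeR adjusted p = 0.0702 and 0.0710). Those at Pax7, Pax5, Gata2 and Barhl1 had -0.37, -0.29, 0.14 and 0.59 and did not pass either.

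**Figure D2:**
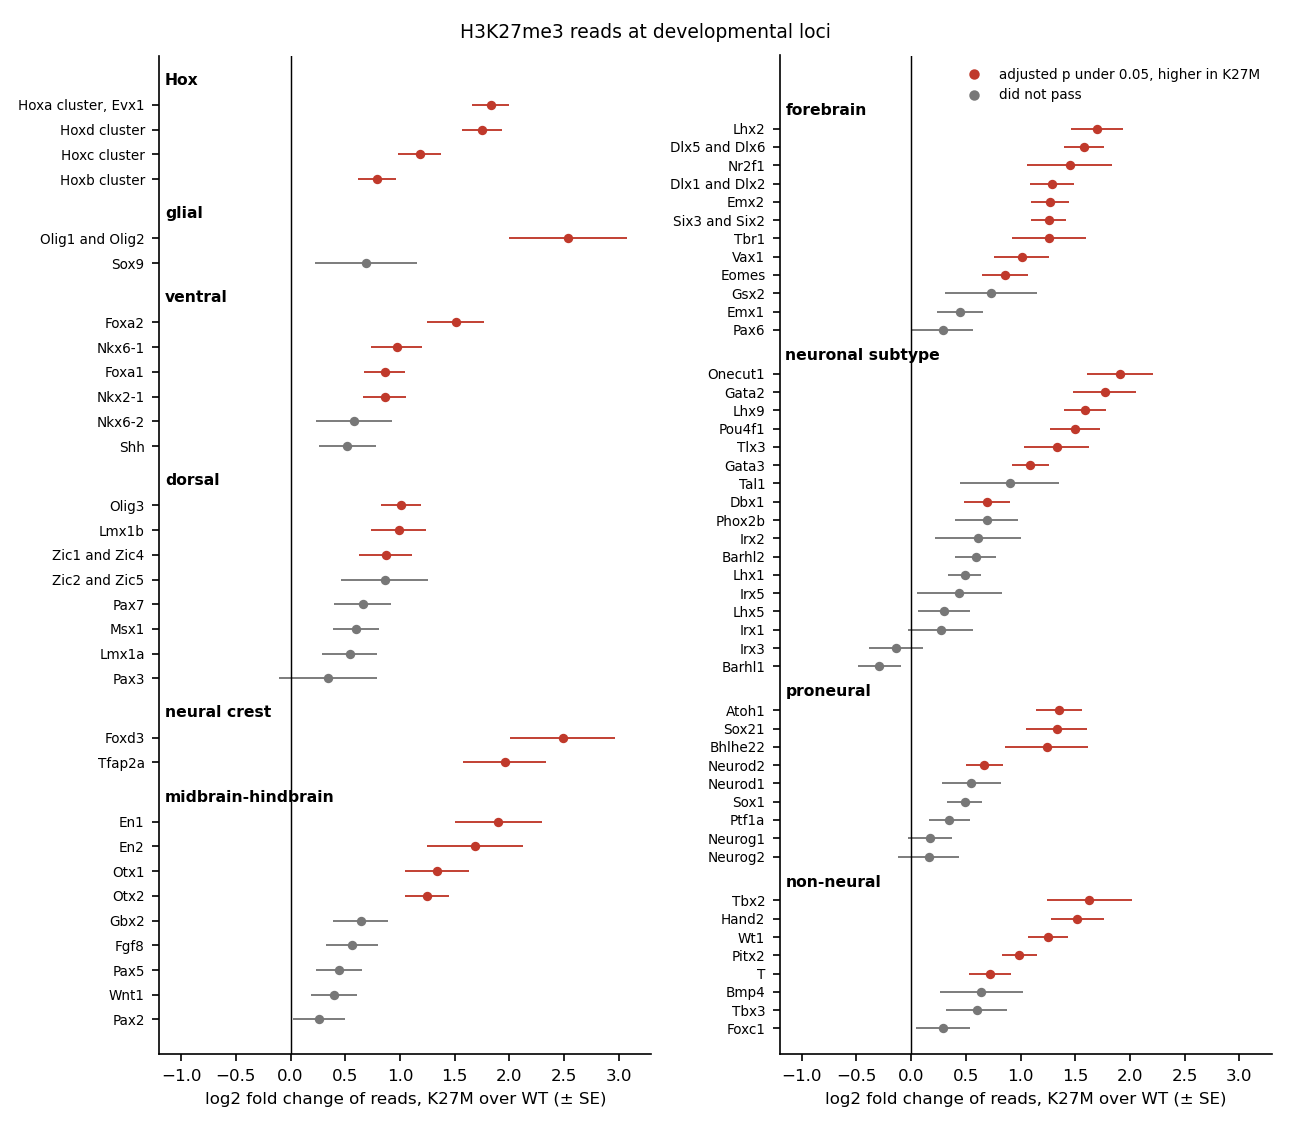
Points are log2 fold changes of H3K27me3 reads, K27M over WT, with bars of 1 SE from edgeR (6 K27M and 5 WT tumours), for 77 of the 79 developmental regions with an island in all 11 tumours, by role. Red marks adjusted p under 0.05. Of the 77 points 43 are red, all to the right of 0, and Irx3 and Barhl1 alone lie left of it.

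All 4 Hox clusters rose in reads relative to the other regions. These clusters encode the transcription factors that set position along the body axis, and the anterior ones are used in the hindbrain. The Hoxa region (chr6:52021001-52284200, mm9, which also covers Evx1) had 9094 CPM in the lowest, 11603 in the median and 15392 in the highest K27M tumour, against 3023, 2998, 3245, 3433 and 4450 CPM in WT tumours 7 to 11. The genotypes were far apart, and the log2 fold was 1.83 ± 0.17 (SE, adjusted p = 9.1e-05). The Hoxd region (chr2:74449401-74664000) had 8400, 11973 and 14076 CPM as lowest, median and highest in K27M tumours, against 2778, 3751, 4104, 3146 and 3104 CPM in WT tumours 7 to 11, again without overlap. Its log2 fold was 1.75 ± 0.18 (adjusted p = 0.000162). The Hoxc region rose by 1.18 ± 0.20 on the log2 scale (adjusted p = 0.00189), with no overlap between genotypes. The Hoxb region rose least, by 0.79 ± 0.17 (adjusted p = 0.00998), and overlapped: 11855 CPM in the lowest K27M tumour and 12354 CPM in WT tumour 11. Called length hardly differed in the Hoxb, Hoxc and Hoxd regions (log2 differences of -0.05, 0.03 and 0.12), so the reads there were denser over a similar stretch. In the Hoxa region the median called length was 239.7 kb in K27M tumours and 154.0 kb in WT tumours, with no overlap, although the length test did not pass (log2 difference 0.56, adjusted p = 0.196).

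The largest log2 fold of all 3027 regions was at Olig1 and Olig2, the basic helix-loop-helix factors of the oligodendrocyte lineage, where every tumour also had H3K27ac. The region (chr16:91156001-91248600, mm9) had 605, 941 and 1325 CPM as lowest, median and highest in K27M tumours, against 125, 18.2, 129, 141 and 388 CPM in WT tumours 7 to 11. No WT tumour reached the lowest K27M tumour, and the log2 fold was 2.54 ± 0.54 (adjusted p = 0.00824). WT tumour 8 was far below the others, and without it the log2 fold was 2.25 (edgeR adjusted p = 0.00257). Islands covered 56.2 to 92.4 kb in K27M tumours, against 15.6, 3.40, 19.8, 21.2 and 22.0 kb in WT tumours 7 to 11. These lengths did not overlap, although the length test did not pass (log2 difference 2.38, limma adjusted p = 0.0953). Reads per called kb rose (log2 difference 0.74 ± 0.16, limma adjusted p = 0.00335). H3K27ac peaks covered 15.9 to 24.0 kb of the region in K27M tumours and 16 to 23.9 kb in WT tumours, with a log2 difference of -0.01 that did not pass. Of that acetylated length, 14.8 to 20.8 kb lay inside H3K27me3 islands in K27M tumours, and 13.2, 0, 13.4, 14.1 and 10.3 kb in WT tumours 7 to 11.

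Other loci of the glial and precursor programme could not enter the read test, because WT tumour 8 had no island there. Its list held 4778347 autosomal island reads, and why it had no island at these loci was not tested. Sox10, a driver of oligodendrocyte identity, had islands of 13.4 to 18.6 kb in K27M tumours, against 4.00, 0, 5.00, 12.6 and 3.60 kb in WT tumours 7 to 11. Nkx2-2, a ventral and oligodendrocyte precursor factor, had 26.2 to 41.0 kb in K27M tumours, against 16.6, 0, 11, 24.2 and 14.4 kb in WT tumours 7 to 11. At both loci the longest WT length stayed under the shortest K27M length. Neither was in the length test, and the share of all regions with lengths apart in this way was not counted. Sox2, a neural stem cell factor, had 35.4 to 45.0 kb in K27M tumours, against 15.2, 0, 3.20, 36.0 and 20.6 kb in WT tumours, and Pdgfra, the receptor gene of oligodendrocyte precursors, had 14.8 to 32.0 kb against 0 to 14.8 kb. These 2 touch or overlap, WT tumour 10 being the high one at Sox2. H3K27ac lay on all 4 in all 11 tumours. At Sox2 it covered 23.7 to 31.1 kb in K27M tumours, of which 23.7 to 30.5 kb lay inside H3K27me3 islands, and 23.8 to 30.8 kb in WT tumours, of which 14, 0, 3.20, 25.5 and 16.5 kb did in WT tumours 7 to 11. At Pdgfra H3K27ac covered 10.0 to 13.6 kb in K27M tumours, of which 6.92 to 13.2 kb lay inside islands. In WT tumours it covered 9.05 to 14.8 kb, of which 0 to 6.43 kb did. The length inside islands is limited by the island lengths given above. The tumour suppressor genes Cdkn2a and Cdkn2b shared a region with islands of 25.6 to 51.2 kb in K27M tumours, against 21.6, 0, 7.60, 27.4 and 43.0 kb in WT tumours, which overlap. Whether both marks lie on the same allele or in different cells was not tested. Sox9, a glial and stem cell factor, had a log2 fold of 0.69 ± 0.47 and did not pass (adjusted p = 0.352).

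**Figure D3:**
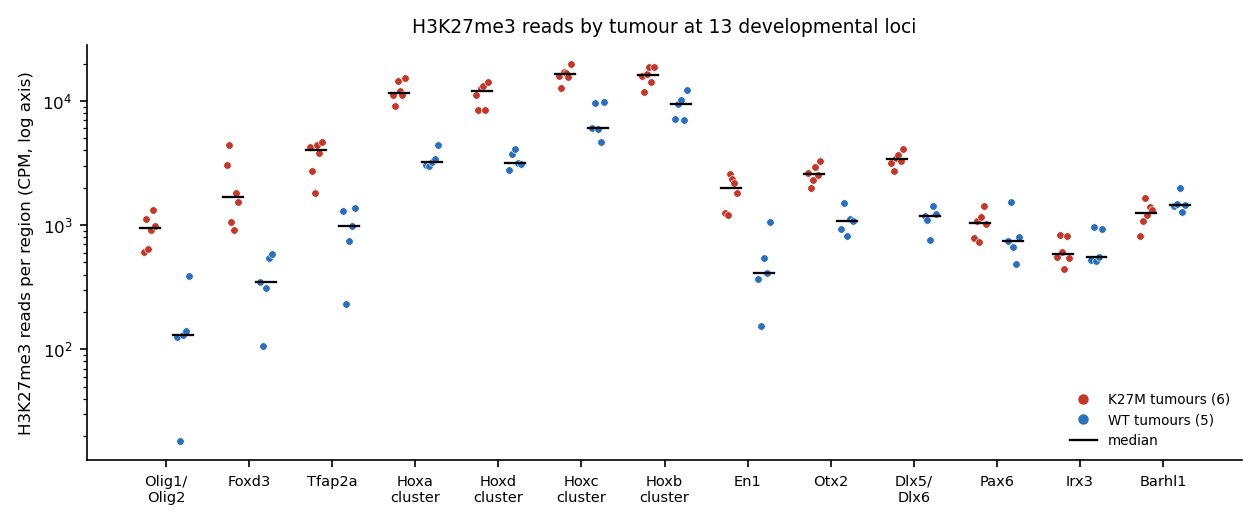
H3K27me3 reads in CPM (log axis) at 13 developmental loci. Each point is 1 tumour, K27M to the left of WT at each locus, and lines are medians. The groups are apart at the Hoxa, Hoxc and Hoxd clusters, Olig1/Olig2, Foxd3, Tfap2a, En1, Otx2 and Dlx5/Dlx6, and mixed at Hoxb, Pax6, Irx3 and Barhl1.

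Loci of other lineages rose too. Both neural crest loci did: Foxd3, an early neural crest factor, rose by 2.49 ± 0.48 on the log2 scale (adjusted p = 0.00493), and Tfap2a, a neural crest and ectoderm factor, by 1.96 ± 0.38 (adjusted p = 0.00527). The Foxd3 region (chr4:99220601-99383400) had 910, 1674 and 4378 CPM as lowest, median and highest in K27M tumours, against 350.5, 106, 309, 544 and 581.5 CPM in WT tumours 7 to 11. Among 14 forebrain regions 10 rose, with a median log2 fold of 1.22. Dlx5 and Dlx6, factors of forebrain interneurons, rose by 1.58 ± 0.18 (adjusted p = 0.000265) and Lhx2, a cortical selector, by 1.70 ± 0.24 (adjusted p = 0.000799). Pax6 did not pass (0.29 ± 0.28, adjusted p = 0.536). Among 17 regions of neuronal subtype genes 7 rose. Onecut1, a factor of hindbrain and spinal neurons, had the largest log2 fold of these, 1.91 ± 0.30, followed by Gata2, a factor of GABAergic neurons, at 1.77 ± 0.29 and Lhx9, a LIM factor of dorsal interneurons, at 1.59 ± 0.19, and the neighbours in this order lie within their SEs. Irx3 (-0.14 ± 0.25, adjusted p = 0.745) and Barhl1 (-0.29 ± 0.20, adjusted p = 0.359) were the 2 with negative folds.

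At the midbrain and hindbrain border, close to where the tumours grew, 4 of 9 regions rose. En1 and En2, which pattern the midbrain and cerebellum, rose by 1.90 ± 0.40 (adjusted p = 0.0079) and 1.69 ± 0.44 (adjusted p = 0.0218). Otx1 and Otx2, which define forebrain and midbrain, rose by 1.34 ± 0.29 and 1.25 ± 0.20. Pax2, Pax5, Wnt1, Fgf8 and Gbx2 did not pass, with log2 folds between 0.26 and 0.64. En2 lost its call when females alone were compared and without WT tumour 7 (edgeR, highest adjusted p = 0.105). The loss in females alone is not particular to En2, since only 9 of the 79 developmental regions rose there. Of 6 ventral regions 4 rose, among them Foxa2, the floor plate factor (1.51 ± 0.26, adjusted p = 0.0022), while Shh, the floor plate signal, did not pass (0.52 ± 0.26, adjusted p = 0.216). Of 8 dorsal regions 3 rose: Olig3, Lmx1b and the Zic1 and Zic4 region. The Zic1 and Zic4 region lost its call in 9 of 18 alternatives. Among them were leaving out any of K27M tumours 1, 4, 5 and 6 or WT tumours 7, 8 and 9. Over the 18, its adjusted p ran from 0.00234 to 0.0773 (edgeR, or DESeq2 in the alternative that used it). The dorsal factors Pax3, Pax7 and Msx1 did not pass. Of 9 proneural regions 4 rose, with Atoh1, the factor of cerebellar granule neuron precursors, at 1.35 ± 0.21 (adjusted p = 0.00115), whereas Neurog1 and Neurog2 had log2 folds of 0.17 and 0.16 and did not pass. Among 8 loci of organs outside the nervous system 5 rose, including the limb and heart genes Tbx2 and Hand2 (1.63 ± 0.39 and 1.52 ± 0.24) and the kidney gene Wt1 (1.25 ± 0.18).

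Reads per called kb, a measure added after the data were seen, showed how the developmental regions differed. After centring each tumour on its median, this density was higher in K27M tumours in 342 of the 3027 regions (11.3%) and lower in 91 (3.01%), by limma with Benjamini-Hochberg adjustment. Of the 79 developmental regions it was higher in 67 and lower in none, with a median log2 difference of 0.89 beside 0.03 over all. Their median length difference was 0.08. The called length passed the test in 1 of the 3027 regions (0.0330%; chr9:45225801-45259600, limma adjusted p = 0.0258) and in none of the 79, while 269 of the 3027 had an unadjusted p under 0.05. That region had islands of 11.2 to 31.8 kb in K27M tumours and 2.40 to 4.80 kb in WT tumours.

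Reads in a region are its called length times its density, so regions chosen by their reads had to differ in at least 1 of these, and the values that follow are a description. Over the 162 that fell the median log2 difference of length was -0.88 and that of density -0.22, and the called length had a negative difference in all 162. None of the 162 passed the length test, and 35 passed as lower in density. The length difference was larger than the density difference in 148 of the 162, beside 2060 of all 3027. Over the 225 that rose these medians were 0.35 and 0.81. H3K4me3 peaks of all 5 profiled tumours lay in 60.5% of regions that fell, 85.3% of those that rose and 69.7% of all 3027. The median widths of these sets were 38.0, 49.8 and 31.4 kb, and the shares were not adjusted for width. None of the 162 was a developmental region of the list.

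**Figure D4:**
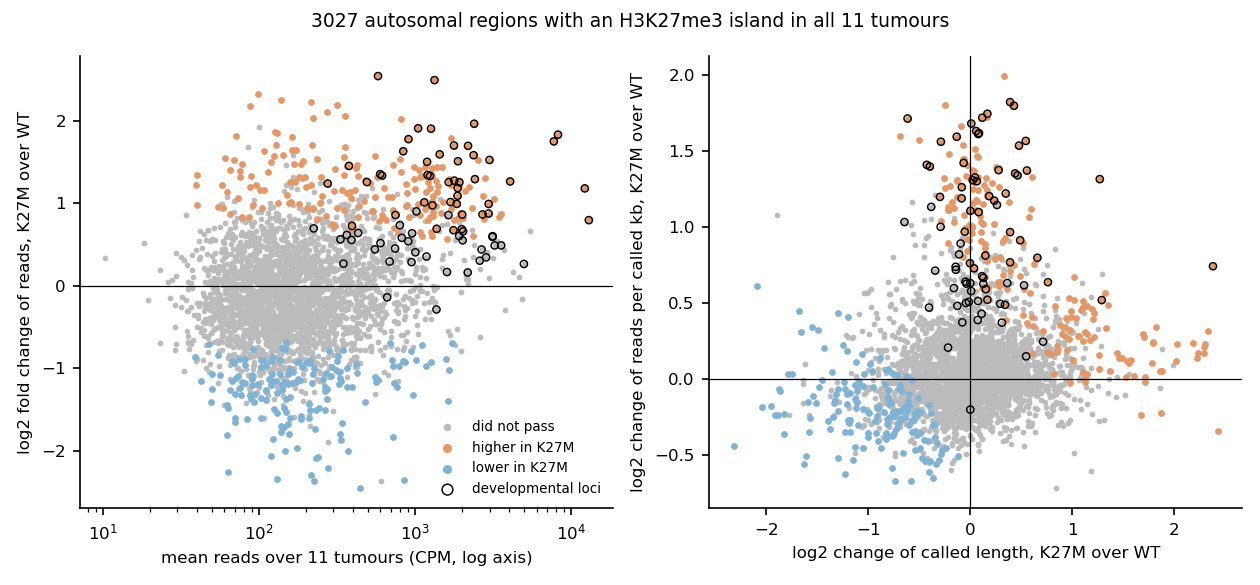
The 3027 regions, with those that rose in orange, those that fell in blue and developmental loci ringed. Left, log2 fold of reads, K27M over WT, against mean CPM (log axis). Right, log2 difference of reads per called kb against that of called length. The ringed regions lie above 0 in density except Barhl1 (-0.20), with a median length difference of 0.08. The ringed points farthest to the right are Olig1/Olig2 (2.38), Nr2f1 (1.29) and Foxd3 (1.27), and the blue regions lie left of 0 in length.

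Of the 10 regions with the largest rises in log2 fold, Olig1/Olig2 and Foxd3 were on the list of loci. Of the rest, 2 are described, which were named after their values were seen. At Tril, a co-receptor of innate immune signalling found in glia (chr6:53742801-53783200), reads rose by 2.25 ± 0.30 on the log2 scale (edgeR adjusted p = 0.000534), with islands of 13.6 to 36.4 kb in K27M tumours and 2.40 to 12.2 kb in WT tumours. At Pou3f1, a POU-domain factor of glia and neural progenitors (chr4:124308401-124352600), reads rose by 2.03 ± 0.45 (adjusted p = 0.00999), with islands of 31.2 to 40.6 kb in K27M tumours and 3.40 to 22.8 kb in WT tumours. At both the density difference was 0.17 to 0.24 on the log2 scale and H3K27ac peaks were present in every tumour. Another 5, on chromosomes 2, 8, 11, 12 and 15, had length differences of 2.02 to 2.34 and are not named. Among the 10 largest falls in log2 fold, 2 were named after their values were seen. At Srrm4, a neuronal splicing factor (chr5:116886601-117055200), K27M tumours had 156, 287.5 and 477.5 CPM as lowest, median and highest, against 390.2, 676, 1877, 671 and 3928 CPM in WT tumours 7 to 11. The log2 fold was -2.35 ± 0.52 (adjusted p = 0.00999), although WT tumour 7 lay within the K27M range. At Tgfbr3, a co-receptor of transforming growth factor beta (chr5:107617201-107684400), K27M tumours had 50.1 to 176 CPM and WT tumours 281 to 854 CPM, with a log2 fold of -2.20 ± 0.40 (adjusted p = 0.00283). The other 8, on chromosomes 3, 4, 5, 11 and 15, had length differences of -2.32 to -1.58 and are not named.

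H3K27ac length was tested in the 1343 of the 3027 regions with a peak in 5 or more tumours, and 4 passed (0.298%) by limma with Benjamini-Hochberg adjustment, while 121 had an unadjusted p under 0.05. Of the 4, 3 also passed the H3K27me3 read test, each in the opposite direction. At Tfap2a (chr13:40762001-40856000) H3K27ac covered 0.260 and 0.471 kb in K27M tumours 1 and 2 and 0 kb in the other 4, against 2.72, 12.7, 7.81, 6.98 and 5.46 kb in WT tumours 7 to 11. The log2 difference of length + 200 bp was -4.55 ± 0.45 (adjusted p = 0.000534). H3K27me3 reads there were 1822 to 4631 CPM in K27M tumours and 233 to 1362 CPM in WT tumours, so no tumour lay between the groups in either mark.

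The opposite was measured between Irx1 and Irx2, homeobox genes of neural and heart patterning (chr13:72382601-72448600). H3K27me3 reads there were 32.2, 154 and 292 CPM as lowest, median and highest in K27M tumours, against 446, 557.5, 1000, 675 and 469 CPM in WT tumours 7 to 11. Every K27M tumour was below every WT tumour, with a log2 fold of -2.0 ± 0.43 (adjusted p = 0.00947). H3K27ac covered 0.319 to 3.10 kb in K27M tumours and 0 kb in all 5 WT tumours, a log2 difference of 2.80 ± 0.41 (adjusted p = 0.00677). With a pseudocount of 1000 bp that difference was 1.18 and did not pass (adjusted p = 0.0806). The region at Meis2, a homeobox partner of Hox proteins (chr2:115669401-115690200), named after its values were seen, had 1.03 to 4.60 kb of H3K27ac in K27M tumours, against 0.232 kb in WT tumour 7 and 0 kb in the other 4. That difference was 3.45 ± 0.41 (adjusted p = 0.0016), and its H3K27me3 reads did not pass (0.48 ± 0.30, adjusted p = 0.319). The Meis2 region with most H3K27me3 reads (chr2:115874801-115915800) is another one, where reads rose by 1.32 ± 0.36 on the log2 scale (edgeR adjusted p = 0.0308). Over the 134 regions with risen H3K27me3 reads in this test the median H3K27ac difference was -0.03, with 74 lower and 60 higher in K27M tumours. Over the 58 with fallen reads it was -0.17, with 39 lower and 19 higher, and over all 1343 it was -0.01, with 690 lower and 653 higher.

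**Figure D5:**
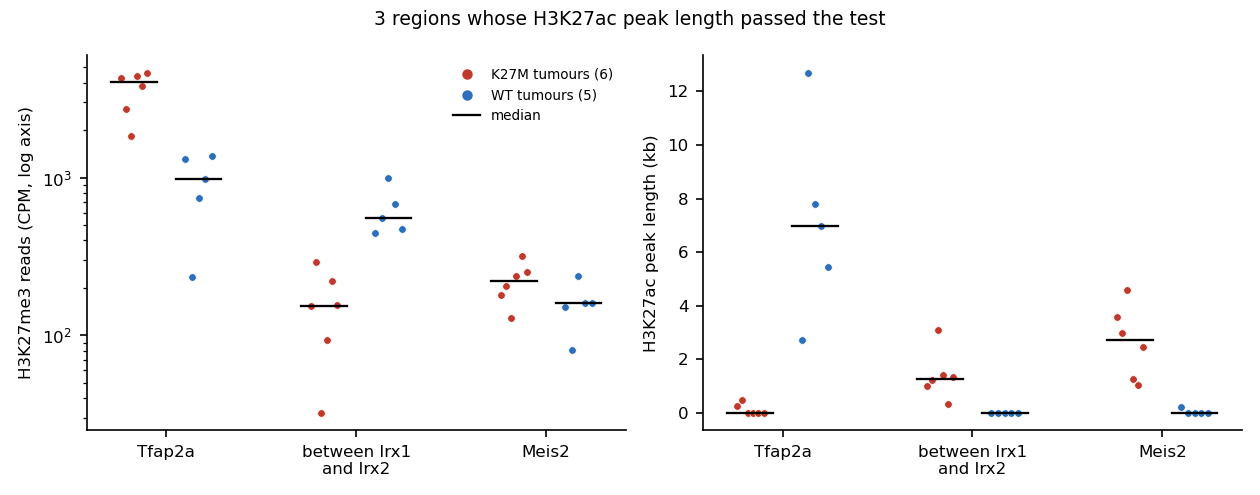
H3K27me3 reads (CPM, log axis, left) and H3K27ac peak length (kb, right) in 3 of the 4 regions whose H3K27ac length passed the test. Each point is 1 tumour, K27M to the left of WT, and lines are medians. Tfap2a has higher H3K27me3 CPM and H3K27ac near 0 in K27M tumours, and the region between Irx1 and Irx2 the reverse.

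Presence or absence of an island gave no region past the adjusted threshold. Of the 51216 regions, 22966 (44.8%) had an island in 1 tumour and 3027 (5.91%) in all 11. Fisher's exact test was run on the 8881 regions whose number of calls allowed an unadjusted p under 0.05. None passed after adjustment (lowest adjusted p = 0.199), and 676 had an unadjusted p under 0.05. Islands in every K27M and no WT tumour were found in 48 regions (0.540%) and the reverse in 47 (0.529%). Leaving out 1 tumour cannot lower these counts, and gave 51 to 108 and 48 to 245. The first was highest without K27M tumour 5, the shallowest K27M list, and the second without WT tumour 11, the shallowest WT list. Without WT tumour 10, the deepest list, the first was 87. The 48 had a median width of 9.60 kb, and H3K4me3 peaks of at least 1 tumour lay in 79.2% of them. The 47 were 9.40 kb wide at the median, and 27.7% had such a peak, beside 22.5% of all 51216 regions. The sets differ in width: all regions were 5.60 kb wide at the median. The regions with an island in all 11 tumours were 31.4 kb wide, and 84.1% had such a peak. H3K4me3 was profiled in 2 K27M and 3 WT tumours. Of the 48, the region with most reads (chr11:61363201-61407200, 6025 reads over the K27M tumours) lies next to 1 of the 10 largest rises. Of the 47, it was chr11:55910401-55951000, with 2822 reads over the WT tumours. Neither set could hold a developmental region of the list, since 79 of those 84 had an island in all 11 tumours. The rest had one in 6 K27M and 4 WT tumours.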

How the data were processed

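H3K27me3, and beside it H3K27ac and H3K4me3, was measured by ChIP-seq in frozen tumours. Per the submitters' processing notes, SICER 1.1, MACS2, bedtools 2.25.0, BWA 0.7.12, SAMtools, Picard and R 2.14.0 were used, with build mm9 and no roles given. H3K27me3 islands were called with a window of 200 bp, a gap of 600 bp and an FDR of 0.00001, per the file names, and column 4 of the deposited lists holds the count of reads per island. The deposited peak lists of the other marks carry the authors' score, fold ratio, −log10 p-value and −log10 q-value, of which only the last was used, as a filter. Drosophila chromatin was added per the labels' protocols, and no scale factor was used here, so no value measures an absolute amount of a mark. Reads outside islands are not listed, so total depth is unknown. Autosomal island reads came to 2346983 to 9370425 in K27M tumours and 1878972 to 14400936 in WT tumours.

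Islands sharing 1 bp over the 11 tumours were merged, and reads and lengths summed per region. Tests ran over all regions with 11 values in R 4.3.3 with edgeR 4.0.16, limma 3.58.1 and, as an alternative, DESeq2 1.42.0 (threshold 0.05), after tests on simulated data. H3K27ac used log2(length + 200 bp). Python 3.11.15 with pandas 2.3.3, numpy 2.4.6, SciPy 1.17.1 and matplotlib 3.10.9 did the rest. The labels number tumours without naming animals, so the spread behind each p-value is that between these tumours and may be technical. Named were the listed loci (interval extended by 10 kb), the 10 regions per direction with the largest fold, the 5 per direction with most reads among fully separated calls (the first of each printed), and regions past the length tests. The members, the loci and their roles were chosen with earlier results of these data known, and 8 genes were added after values were seen. Some of these are not reported here. Alternatives were other scalings and filters, sex, list sizes and leaving out each tumour.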

Additional observations from a re-analysis of the deposited data

Results flagged for a closer look

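Values of each tumour were set against the others of its genotype in 66 groups of 5 or 6 tumours, of which chance alone would single out about 1 in 20, and 4 stood apart. K27M tumour 6 had 76.8 reads per kb of autosomal island, against 35.0 to 44.2 in the other K27M tumours. K27M tumour 5 had 546.7 CPM at Pou3f1, against 259 to 326 in the others. WT tumour 7 was the only WT tumour with H3K27ac (0.232 kb) in the Meis2 region. WT tumour 10, the deepest list, had islands of 12.2 kb at Tril, against 2.40 to 5.20 kb in the other WT tumours.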

How the results depend on the processing

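No paired analysis was possible because the K27M and WT tumours share no number. The developmental result held its direction throughout: 37 to 48 of the 79 regions rose when 1 tumour was left out, 9 in females alone and 28 of 48 among regions of at most 100 kb, where fewer regions were tested, and none fell. Of the 44, 36 passed under every alternative of the read test in which they were tested, apart from females alone. There were 18 such alternatives, but not every region was in all of them, regions over 100 kb being left out of 1. Over all regions, leaving out 1 tumour gave 156 to 269 rises and 77 to 169 falls (77 to 105 without K27M tumour 1, 4, 5 or 6 or WT tumour 7, 8 or 9). Females alone gave 26 and 7, with fewer samples. DESeq2 gave 303 falls, all autosomal island reads as library size 89, and no composition scaling 368, where the median over all regions shifted from -0.10 to -0.30 (log2); the cause was not tested. Without composition scaling Neurog1 and Neurog2 turned to -0.03 and -0.05, with sex as a covariate Neurog2 and Irx3 to -0.02 and 0.01, and leaving out 1 tumour gave -0.01 to 0.48 for Neurog2 (-0.01 without WT tumour 11) and -0.23 to 0.01 for Irx3 (0.01 without WT tumour 8). The length test called 43 and 19 regions after centring on each tumour's median, 0 rises with equal list sizes or with sex, and 0 to 5 rises and 0 to 6 falls leaving out 1 tumour (6 without WT tumour 11). H3K27ac gave 1 rise with -log10 q of at least 5 or a pseudocount of 1000 bp, 4 falls after centring, and 2 to 5 rises and 2 to 4 falls leaving out 1 tumour (4 or 5 rises without K27M tumour 2 or WT tumour 10, 4 falls without K27M tumour 1 or WT tumour 11). With equal list sizes 134 and 25 regions were fully separated calls, and leaving out 1 tumour gave 51 to 108 and 48 to 245 (moved by over 1.5 times without K27M tumours 4 and 5 and WT tumours 9 and 10 for the first, and without K27M tumours 2 and 3 and WT tumours 8, 9 and 11 for the second, 245 without the last), with none past the threshold. Log2 differences of island number, covered length, median width, read-weighted width and reads per kb ran from -0.53 to -0.13, -0.52 to -0.01, -0.10 to 0.16, 0.25 to 0.55 and 0.35 to 0.66 leaving out 1 tumour, and median width turned to -0.14 with equal list sizes. Reads per kb passed without WT tumour 10 (0.66, exact permutation test, adjusted p = 0.0476).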
